A study of Mus musculus with 56 samples.

Results

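A set of 10 genes of sugar transport and glycogen metabolism were followed through the day in visceral adipose tissue (VAT): Slc2a1, Slc2a4, Slc2a5, Khk, Gys1, Gys2, Ppp1r3b, Ppp1r3c, Gbe1 and Pygl. They are the entries of the deposited VAT table whose Ensembl identifiers map to these symbols, 10 of 25939 genes. The study asked how feeding at the wrong time of day resets daily rhythms in mouse tissues. The VAT samples came from female C57BL/6J mice of 9 weeks of age, kept in 12 h of light and 12 h of dark with water and chow. One regimen was nighttime-restricted feeding (NRF), in which food was given in the natural active phase, and it served as the reference. The other was daytime-restricted feeding (DRF), with food in the rest phase. Both regimens had run for 7 days, and no genetic change or drug was part of either group. RNA was sequenced from 56 mice, 4 at each of 7 zeitgeber times (ZT, hours after lights on) from ZT0 to ZT24 under each regimen, with 1 library per mouse. Replicate numbers name different mice at each time, and libraries were treated as unpaired.

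Glucose enters fat cells through facilitative transporters of the Slc2a family. Slc2a4 (GLUT4) is the insulin-regulated one, held in vesicles until insulin moves it to the surface, Slc2a1 (GLUT1) carries basal uptake, and Slc2a5 (GLUT5) carries fructose, which ketohexokinase (Khk) phosphorylates. Glycogen synthase (Gys1, the broadly expressed form, and Gys2, the form known from liver) adds glucose units to the polymer, Gbe1 makes its branches, and glycogen phosphorylase (Pygl, the form known from liver) releases them again. Ppp1r3b and Ppp1r3c are targeting subunits that bring protein phosphatase 1 to glycogen, which activates the synthase and inactivates the phosphorylase. In adipose tissue glycogen is a small and quickly turned over store, and transport and phosphorylation of sugar feed fatty acid synthesis after a meal.

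Levels are given in CPM (read counts scaled to a common library size) on the effective library size recovered from the deposited values, which was 31.8 to 47.3 M reads per library. Differences and amplitudes are on log2(CPM + 1), a scale that understates changes of low genes. All 10 genes were detected in all 56 libraries, at 26 or more recovered reads. Adipocyte markers (8 of 8 measured, with Adipoq at 1025 CPM or more) were present in every library. Libraries stood apart in 3 cases. The library of DRF ZT0 replicate 4 had a summed level of 5348 CPM over 9 uterine or oviduct epithelium markers, and DRF ZT8 replicate 1 had 614 CPM, against 9.71 to 103 CPM in the other libraries. Their summed adipocyte markers were 16994 and 11839 CPM, below the 20675 to 44075 CPM elsewhere. NRF ZT24 replicate 4 held 1385 CPM of Alb, a liver gene, against at most 69.98 CPM in the others. Skeletal muscle markers summed to 6.49 to 633 CPM. Calls that changed without these libraries are given or counted below. Levels, shares, SDs and correlations are of all libraries unless stated.

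**Figure D1:**
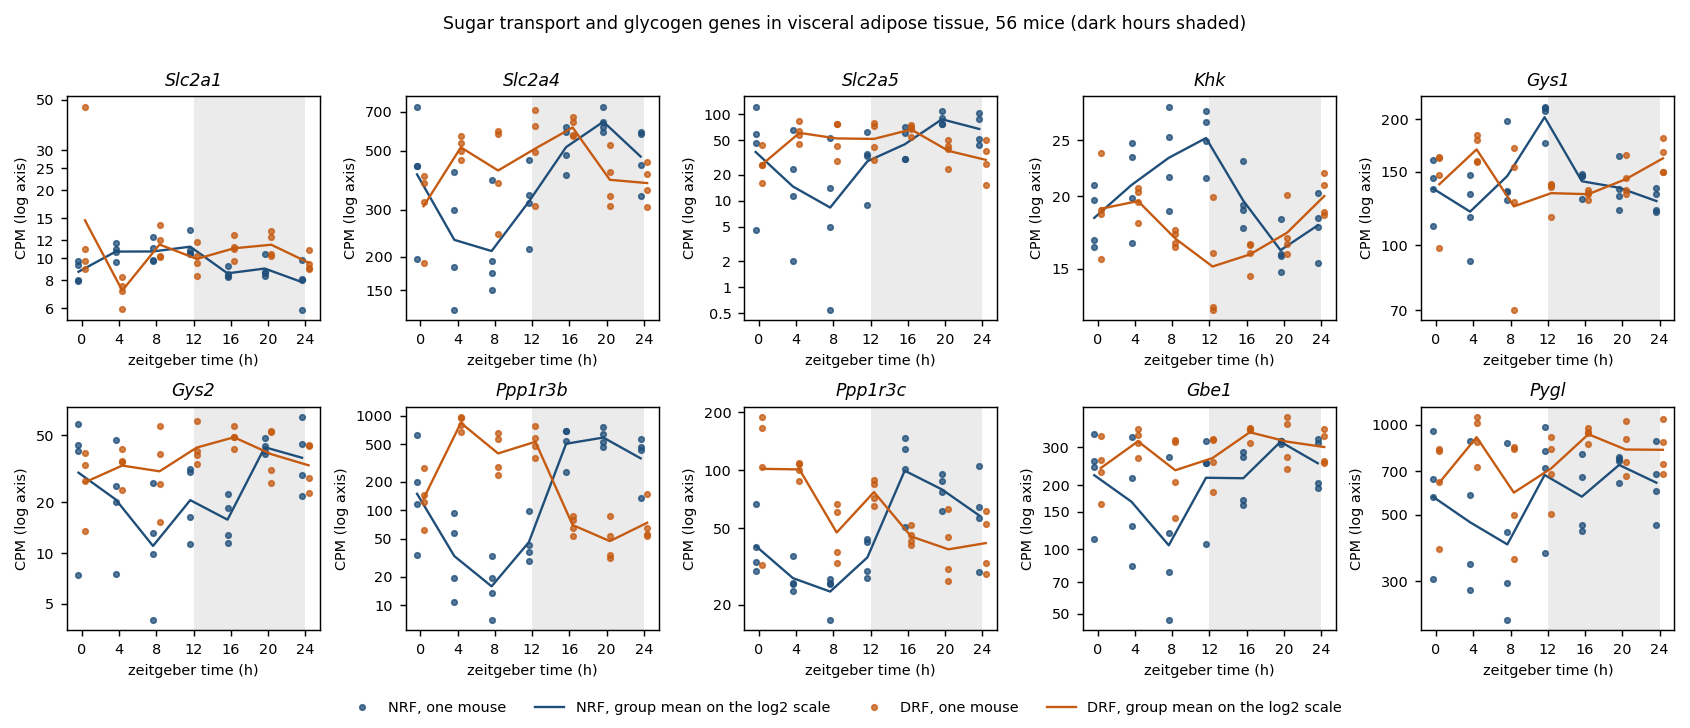
CPM (log axis) of the 10 genes in each of 56 mice against zeitgeber time, with NRF in blue, DRF in orange, 1 point per mouse and lines through the group means taken on the log2 scale; dark hours are shaded. Ppp1r3b ran in opposite directions under the 2 regimens, Slc2a5 was as low as 0.550 CPM in a single NRF mouse, and 1 DRF mouse at ZT0 stood apart for Slc2a1 at 46.8 CPM.

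Per kilobase of exon, Slc2a4 was the highest of the 10 genes, at 126 ± 46.1 CPM per kb (SD, n = 56 libraries), followed by Pygl at 102 ± 32.2. A middle range held Gbe1 at 49.1 ± 16.6, Ppp1r3b at 47.1 ± 46.2, Gys1 at 30.3 ± 5.77 and Ppp1r3c at 22.6 ± 13.9 CPM per kb. Slc2a5 (14.5 ± 8.39), Gys2 (12.3 ± 5.71) and Khk (10.6 ± 1.98) were lower, and Slc2a1 was the lowest at 3.00 ± 1.49. The Slc2a1 SD includes 13.3 CPM per kb in DRF ZT0 replicate 4, a library that stood apart. In the NRF libraries alone Slc2a1 was at 2.73 ± 0.451 CPM per kb (SD, n = 28). Neighbours in this order lay within the larger of their SDs except Pygl and Gbe1, and Khk and Slc2a1. The median of Ppp1r3b, 22.6 CPM per kb, was less than its SD. Of the Slc2a1 and Slc2a4 signal per length, Slc2a4 made up 97.1% ± 1.87 under NRF and 97.1% ± 3.42 under DRF (SD, n = 28 libraries each). The DRF SD includes 80.3% in DRF ZT0 replicate 4, a library that stood apart. Shares were 94.6% or more in the other DRF groups and 93.0% or more under NRF. All 10 levels per length are of whole tissue RNA, in which fewer cells of a type and less RNA per cell cannot be told apart.

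The first comparison asked which genes cycled over 24 h under each regimen. With the combined JTK_CYCLE and Lomb-Scargle test (Benjamini-Hochberg adjusted over all genes), 6 of the 10 genes were rhythmic under NRF, where 24.4% of all genes passed. These were Slc2a1, Slc2a4, Slc2a5, Khk, Ppp1r3b and Ppp1r3c. Call shares here and below are over all genes, of which 6190 had a mean under 0.1 CPM, whereas every member averaged 10.5 CPM or more. Shares among genes of like level are not given. Under DRF 1 of the 10, Ppp1r3b, passed, where 12.9% of all genes did, and 2 were under 0.05 before adjustment. Ppp1r3b was thus the 1 member called under both regimens, against 7.85% of all genes. The limma F test of the same 24-h cosine called 8 members under NRF, adding Gys1, Gys2 and Gbe1 and leaving out Slc2a1, and 2 under DRF, Khk and Ppp1r3b, where 33.7% and 26.7% of all genes passed. Whether the rhythm differed between regimens was tested directly with limma on both regimens together. That difference passed for 7 of 10 members (Slc2a4, Slc2a5, Khk, Gys1, Gys2, Ppp1r3b and Ppp1r3c), against 36.0% of all genes. It did not pass for Slc2a1 (adjusted p = 0.11), Gbe1 (0.19) and Pygl (0.76). Without DRF ZT8 replicate 1 and DRF ZT0 replicate 4, Slc2a1 passed as well (adjusted p = 0.00042) and was rhythmic under DRF, as was Khk, which brought the DRF count to 3.

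Among the transporters, Slc2a4 lay at chr11:69942539-69948188 (GRCm38, minus strand) and was at its highest in the middle to late dark phase under NRF. At ZT20 the 4 NRF mice had 614, 641, 731 and 589 CPM, and at ZT8 they had 193, 173, 387 and 150.4 CPM. All 4 mice at ZT20 were above all 4 at ZT8, and the group means differed by 2.85-fold. The fitted NRF amplitude was 0.83 (SE 0.13) with a peak at ZT19.1 (SE 0.548 h), and the rhythm passed the combined test (adjusted p = 0.00023). Under DRF the highest group was ZT16, at 667, 574, 565 and 642 CPM, and the lowest was ZT0, at 400.2, 321, 377 and 189 CPM. There the amplitude was 0.29 (SE 0.12), and the rhythm did not pass (adjusted p = 0.38). The difference in rhythm between regimens passed (limma, adjusted p = 0.00011). At ZT4 the NRF mice had 299, 415, 127 and 183 CPM and the DRF mice 499, 463, 536 and 566 CPM, with no overlap. Slc2a4 was higher under DRF there by 1.15 (SE 0.32, adjusted p = 0.0081) in limma, and at ZT8 by 1.00 (SE 0.32, adjusted p = 0.025). At ZT20 all 4 DRF mice (338, 415, 527 and 309.6 CPM) were below all 4 NRF mice, a difference of -0.72 (SE 0.32, adjusted p = 0.14) that did not pass. The ZT4 call was lost without replicate 3 or 4, and the ZT8 call without replicate 2 or 4.

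Slc2a5 (chr4:150119283-150144169, plus strand) had the widest spread between mice of the set under NRF, while Ppp1r3b did under DRF. Under NRF it ranged from 0.550 to 123 CPM, with a median of 49.4 (n = 28), and under DRF from 15.2 to 82.8 CPM, with a median of 44.8 (n = 28). The lowest NRF group was ZT8, with 14.3, 0.550, 52.9 and 5.04 CPM, and the highest was ZT20, with 90.2, 77.8, 111 and 76.6 CPM. All ZT20 mice were above all ZT8 mice, but the ZT8 values themselves spanned 96.2-fold within 1 group. At ZT4 the NRF mice had 23.3, 65.8, 2.01 and 11.3 CPM and the DRF mice 63.8, 45.5, 82.8 and 58.1 CPM. The highest NRF mouse overlapped the DRF mice, and the other 3 were below them. Slc2a5 was higher under DRF at ZT4 by 1.99 (SE 0.73, adjusted p = 0.0484) and at ZT8 by 2.52 (SE 0.73, adjusted p = 0.012) in limma. The ZT4 call was lost without replicate 1, 3 or 4, without the ZT24 libraries, without NRF ZT24 replicate 4 (adjusted p = 0.0502), with total-read scaling and with no intensity trend, and the difference was 1.05 without replicate 3, and the ZT8 call when replicate 2 or 4 was. At ZT20 the order was turned, with the DRF mice at 39.9, 43.4, 51.1 and 23.1 CPM and no overlap with NRF, a difference of -1.192 (SE 0.73, adjusted p = 0.34) that did not pass. The amplitude was 1.502 (SE 0.30) under NRF and 0.48 (SE 0.27) under DRF, and the rhythm difference passed (limma, adjusted p = 0.00071). The NRF rhythm passed the combined test (adjusted p = 0.021) but not when any 1 replicate number or the ZT24 libraries were left out. As a share of the 3 transporters per length, Slc2a5 made up 5.52% ± 5.04 at NRF ZT8 and 12.2% ± 1.09 at NRF ZT20 (SD, n = 4).

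Slc2a1 (chr4:119108711-119137983, plus strand) was low and moved little. It ranged from 5.92 to 13.3 CPM, with a median of 9.64 (n = 28) under NRF, and its NRF amplitude was 0.21 (SE 0.10) with a peak at ZT8.90 (SE 1.79 h). The NRF rhythm passed the combined test (adjusted p = 0.019) and not the limma F test (adjusted p = 0.21), and it was lost without replicate 2, 3 or 4 or without the ZT24 libraries. At ZT4 the DRF mice had 7.19, 7.57, 8.26 and 5.96 CPM, all below the NRF mice at 10.95, 11.7, 9.59 and 10.7 CPM, and at ZT16 the DRF mice had 12.6, 10.9, 9.73 and 11.2 CPM, all above the NRF mice at 8.25, 9.24, 8.34 and 8.51 CPM. Neither difference passed in limma, the first at -0.51, SE 0.23, adjusted p = 0.11 and the second at 0.33, SE 0.23, adjusted p = 0.42. The 1 call was at ZT0, where the DRF mice had 9.71, 10.9, 8.95 and 46.8 CPM and the NRF mice 7.98, 9.69, 7.95 and 9.37 CPM, a difference of 0.69 (SE 0.23, adjusted p = 0.040). It rested on DRF ZT0 replicate 4, the library with the epithelial markers, and was lost without replicate 2, 3 or 4, without the ZT24 libraries (adjusted p = 0.053) and with total-read scaling (adjusted p = 0.060), and was 0.16 (adjusted p = 0.48) without the 2 DRF libraries that stood apart. Slc2a1 shares 105 exon bases with Gm12868 on the opposite strand, which averaged 0.0146 CPM, and the library kit does not keep strand.

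Khk (chr5:30921431-30931248, plus strand), the entry enzyme of fructose breakdown, peaked in the light phase under NRF, opposite to Slc2a4 and Slc2a5. It was highest at ZT12, with 28.1, 26.9, 24.9 and 21.5 CPM, and lowest at ZT20, with 18.3, 15.8, 15.9 and 14.8 CPM, a 1.57-fold difference of group means with no overlap. The NRF amplitude was 0.27 (SE 0.04) with a peak at ZT9.39 (SE 0.651 h), and the rhythm passed (combined test, adjusted p = 0.00071). Under DRF the lowest group was ZT12, with 15.97, 12.8, 12.7 and 19.9 CPM, and the highest was ZT24, with 18.5, 22.0, 21.0 and 18.8 CPM. The DRF amplitude was 0.18 (SE 0.04) with a peak at ZT1.59 (SE 0.980 h). That rhythm did not pass the combined test on the deposited values (adjusted p = 0.10) but passed it on log2(CPM + 1) (adjusted p = 0.0094) and in limma (adjusted p = 0.0030). The regimens differed in rhythm (limma, adjusted p = 2.3e-06). At ZT8 all 4 DRF mice (16.6, 16.4, 17.2 and 17.5 CPM) were below all 4 NRF mice (21.6, 28.6, 18.8 and 25.3 CPM), and the same held at ZT12 and ZT16. Khk was lower under DRF at ZT8 by a log2 difference of -0.44 (SE 0.12, adjusted p = 0.0089) and at ZT12 by -0.70 (SE 0.12, adjusted p = 4.3e-05) in limma, while ZT16 did not pass (-0.29, SE 0.12, adjusted p = 0.13). At the same 3 times summed adipocyte markers were below all NRF mice in all DRF mice. At ZT8 they were 11839 to 29729 CPM under DRF (26534 or more without DRF ZT8 replicate 1) and 31709 to 43011 CPM under NRF, where of the 8 genes Cfd was lower and Lep higher without overlap. At ZT12 they were 20675 to 26580 and 32022 to 42887 CPM (4 of the 8 lower and Lep higher without overlap), and at ZT16 22893 to 26516 and 32829 to 40207 CPM (5 of the 8 lower). Summed liver markers were also below NRF at these times, at 994 to 2308 against 4586 to 8987 CPM at ZT12. Of the liver genes Cyp2e1 alone was lower without overlap. Others were higher under DRF without overlap, Serpina1a at ZT8 and ZT12 and Alb at ZT12 and ZT16. The part of either list in the Khk values was not tested. The ZT8 call was lost without replicate 2 or 4, and the NRF rhythm call without replicate 2.

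The promoters of Khk and of the targeting subunit Ppp1r3c are shown because both genes passed the rhythm difference and both hold the letters CACGTG, the E-box core that CLOCK, BMAL1 and carbohydrate-responsive factors are known to bind. RefSeq start sites gave promoters for 7 of the 10 members (Slc2a1, Slc2a5, Khk, Gys1, Pygl, Gbe1 and Ppp1r3c). Slc2a4, Gys2 and Ppp1r3b were not matched. The letters searched on both strands, from 250 bases before to 50 after the start site, were the E-box CACGTG, the D-box TTATGNAA, the forkhead motif GTAAACA and the nuclear receptor half-site AGGTCA, besides the sterol regulatory element and a pair of E-boxes with 5 bases between them. CACGTG reads the same on both strands, was found at 1 place in each of the 2 promoters, 71 bases before the Khk start and 104 before the Ppp1r3c start, and occurs in 7.15% of 32851 promoters of this length. The half-site AGGTCA was in the Pygl promoter and in 16.3% of all. The others were in none of the 7, and in 3.38% (D-box), 3.65% (forkhead), 0.0913% (sterol regulatory element) and 0% (paired E-boxes) of all promoters. The 250 bases before each start follow, 5′ to 3′ on the strand of the gene (RefSeq, GRCm38.p6), chr5:30921309-30921558 on the plus strand and chr19:36736605-36736854 on the minus strand, with CACGTG in capitals. Both RefSeq starts lie inside the gene spans given for these genes, which come from the Ensembl annotation, and a match in letters is not a measured binding site.
Khk: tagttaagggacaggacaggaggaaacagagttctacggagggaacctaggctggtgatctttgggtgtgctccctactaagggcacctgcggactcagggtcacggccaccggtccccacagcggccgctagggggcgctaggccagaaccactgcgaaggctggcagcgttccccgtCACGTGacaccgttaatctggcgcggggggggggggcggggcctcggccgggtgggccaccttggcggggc
Ppp1r3c: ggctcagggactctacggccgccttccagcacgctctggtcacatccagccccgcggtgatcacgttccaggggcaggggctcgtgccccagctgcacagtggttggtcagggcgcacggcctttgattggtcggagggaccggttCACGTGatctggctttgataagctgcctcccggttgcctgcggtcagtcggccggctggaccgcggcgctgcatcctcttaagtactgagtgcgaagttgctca

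Of the 2 glycogen synthase genes, Gys1 (chr7:45434844-45456619, plus strand) was highest at NRF ZT12, with 175, 209, 213 and 214 CPM. The DRF mice at that time had 139, 117, 138 and 140.3 CPM, all below NRF, and Gys1 was lower under DRF by a log2 difference of -0.60 (SE 0.16, adjusted p = 0.0079) in limma, a call lost without replicate 2. At ZT12 summed adipocyte and liver markers were below NRF without overlap (values given with Khk). Of the liver genes Cyp2e1 was lower there, and Alb and Serpina1a were higher, without overlap. Ovary markers were at 9.99 to 11.4 CPM against 16.9 to 22.9 CPM, and endothelium markers were above NRF at 635 to 710.3 against 586 to 623 CPM. Their part in the Gys1 values was not tested. At ZT4 the order was turned, with NRF at 132, 147, 91.9 and 117 and DRF at 158, 159, 183 and 178 CPM, no overlap, and a difference of 0.49 (SE 0.16, adjusted p = 0.028). That ZT4 call was lost without replicate 2, 3 or 4 (a difference of 0.32 without replicate 3) and with libraries scaled by total reads (0.30). The amplitude of Gys1 was 0.23 (SE 0.06) with a peak at ZT12.7 (SE 1.187 h) under NRF, and 0.14 (SE 0.07) with a peak at ZT1.09 (SE 1.94 h) under DRF. The rhythm difference passed (limma, adjusted p = 0.0023), whereas neither regimen alone passed the combined test (adjusted p = 0.15 and 0.99). Of its exon bases, 310 (6.47%) overlap Ruvbl2 on the opposite strand, which averaged 23.9 CPM, and reads from there cannot be told apart.

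Gys2 (chr6:142422613-142473109, minus strand) was lower per length than Gys1 in every library, and differences in its share of synthase transcripts were not tested. Under NRF it was lowest at ZT8, with 13.2, 4.02, 26.02 and 9.88 CPM, and highest at ZT20, with 40.2, 48.2, 43.3 and 38.4 CPM. Under DRF the ZT8 mice had 15.2, 25.8, 56.2 and 38.6 CPM and the ZT16 mice, the highest group, had 49.0, 41.4, 48.7 and 56.2 CPM. At ZT16 all DRF mice were above all NRF mice (12.8, 18.5, 11.5 and 22.4 CPM), and Gys2 was higher by 1.56 (SE 0.47, adjusted p = 0.024) in limma. At ZT8 the groups overlapped and Gys2 was higher by 1.39 (SE 0.47, adjusted p = 0.033), and at ZT12 they did not overlap but the difference of 1.00 (SE 0.47, adjusted p = 0.15) did not pass. The ZT16 call was lost without any 1 of the replicate numbers, and the ZT8 call without replicate 2 or 4. The NRF amplitude was 0.73 (SE 0.18) with a peak at ZT21.6 (SE 0.988 h), and the DRF amplitude 0.34 (SE 0.19). The rhythm difference passed (limma, adjusted p = 0.014) and was lost without replicate 2 or 4 or the ZT24 libraries. Gys2 made up 12.8% ± 5.82 of the synthase signal per length at NRF ZT8 and 35.8% ± 3.17 at NRF ZT20 (SD, n = 4), against 30.8% ± 4.66 and 39.8% ± 2.83 at DRF ZT8 and ZT16. At ZT0, ZT20 and ZT24 the share was lower under DRF (25.4% ± 4.41, 32.8% ± 6.26 and 27.2% ± 4.84) than under NRF (30.1% ± 13.2, 35.8% ± 3.17 and 34.7% ± 11.2). Over all times it was 24.4% ± 11.5 under NRF and 31.2% ± 6.59 under DRF (SD, n = 28). The highest NRF value of Gys2, 64.2 CPM, was in NRF ZT24 replicate 4, the library with Alb, and its mean level and rhythm calls were kept without that library.

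Ppp1r3b (chr8:35375739-35388139, plus strand) had the largest changes of the set and ran in opposite phase between the regimens. Under NRF its level was low through the light phase. At ZT4 the mice had 57.3, 94.1, 10.7 and 19.4 CPM, at ZT8 19.2, 6.98, 33.4 and 13.4 CPM, and at ZT12 36.1, 29.5, 42.8 and 98.6 CPM. It was high in the dark phase, when NRF mice were fed, with 534, 690.0, 255 and 694 CPM at ZT16 and 753, 641, 525 and 469.6 CPM at ZT20. The values at the light onset were mixed, with 33.5, 198, 632 and 118 CPM at ZT0 and 135, 571, 466 and 439 CPM at ZT24. The group means of ZT20 and ZT8 differed 32.7-fold.

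Under DRF the order was turned around. The mice had 942, 678, 974 and 794 CPM at ZT4, 290.1, 237, 568 and 649 CPM at ZT8 and 785, 361, 483 and 578 CPM at ZT12. They had 78.3, 53.3, 88.3 and 65.6 CPM at ZT16 and 31.7, 53.3, 88.3 and 33.7 CPM at ZT20. Every DRF mouse from ZT4 to ZT12 was above every DRF mouse at ZT16 and ZT20. At the light onset they had 62.6, 279, 146 and 124 CPM at ZT0 and 56.1, 65.7, 53.9 and 151 CPM at ZT24. The means of ZT4 and ZT20 differed 16.4-fold. At ZT4, ZT8, ZT12, ZT16 and ZT20 the regimens did not overlap, and all 5 differences passed in limma. The log2 difference of DRF from NRF was 4.63 (SE 0.58, adjusted p = 2.0e-07) at ZT4 and -3.60 (SE 0.58, adjusted p = 1.7e-05) at ZT20. At ZT24 it was -2.24 (SE 0.58, adjusted p = 0.0077), a call that was lost without replicate 2, and at ZT0 it did not pass (-0.17, SE 0.58, adjusted p = 0.91). The rhythm passed the combined test under NRF (adjusted p = 6.8e-06) and DRF (adjusted p = 0.00038, and 0.055 without replicate 4), and the rhythm difference had the smallest p of the set (limma, adjusted p = 8.6e-15). The fitted peak moved from ZT19.4 (SE 0.340 h) to ZT7.47 (SE 0.462 h), a shift of 11.9 h (SE 0.573 h) with a 95% interval of 10.8 to 13.1 h. The amplitude was 2.79 (SE 0.27) under NRF and 2.06 (SE 0.27) under DRF.

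Ppp1r3c (chr19:36731731-36736653, minus strand), the other targeting subunit, went the same way as Ppp1r3b from ZT4 to ZT20, at a smaller scale, but not at ZT0. Under NRF it was highest at ZT16, with 147, 129, 50.7 and 101 CPM, and lowest at ZT8, with 26.01, 16.7, 25.5 and 27.1 CPM, and those groups did not overlap. Its NRF amplitude was 1.03 (SE 0.18) with a peak at ZT18.5 (SE 0.586 h), and the rhythm passed (combined test, adjusted p = 1.6e-05). Under DRF the ZT4 mice had 107, 88.0, 101 and 109 CPM, against 25.7, 36.0, 26.1 and 23.7 CPM under NRF. All DRF mice were above all NRF mice at ZT4, ZT8 and ZT12, by 1.84 (SE 0.36, adjusted p = 0.00018), 0.99 (SE 0.36, adjusted p = 0.0484) and 1.11 (SE 0.36, adjusted p = 0.026) in limma. At ZT16 and ZT20 the groups overlapped and Ppp1r3c was lower under DRF, with log2 differences of -1.12 (SE 0.36, adjusted p = 0.035) and -1.02 (SE 0.36, adjusted p = 0.0498). The DRF profile was less regular. At DRF ZT0 the mice had 32.4, 189.8, 166 and 104 CPM and at ZT24, the same clock time, 28.8, 52.4, 33.0 and 61.0 CPM. The NRF mice at ZT0 had 29.9, 39.9, 67.0 and 33.2 CPM, overlapping those of DRF, and Ppp1r3c was higher under DRF by 1.31 (SE 0.36, adjusted p = 0.012) in limma, a call lost without replicate 2 or 4. ZT0 was the DRF group with the highest mean, at 123 ± 70.4 CPM (SD, n = 4), unlike for Ppp1r3b. The DRF amplitude was 0.42 (SE 0.18), and the 24-h rhythm there did not pass (adjusted p = 1.0). The rhythm difference passed (limma, adjusted p = 1.5e-05), with a shift of 10.8 h (SE 1.56 h). Of the Ppp1r3c calls at single times, only the one at ZT4 was kept in every alternative run.

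Gbe1 (chr16:70313949-70569716, plus strand), the branching enzyme, was low in some NRF mice of the light phase. At NRF ZT8 the mice had 119.6, 46.7, 269 and 78.6 CPM, and at ZT20 they had 320.4, 321, 323 and 312 CPM, a group with an SD of 5.15 CPM. The groups did not overlap. Under DRF all 28 mice ranged from 141 to 418 CPM, with a median of 318. The NRF amplitude was 0.62 (SE 0.15) with a peak at ZT19.6 (SE 0.866 h) and the DRF amplitude 0.17 (SE 0.16), but neither rhythm passed the combined test (adjusted p = 0.30 and 1.0). The 1 time point called was ZT8, where DRF (141, 207, 325 and 319.8 CPM) was higher by 1.16 (SE 0.37, adjusted p = 0.024) in limma with overlapping groups. That call was lost without replicate 2 or 4.

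Pygl (chr12:70190811-70231488, minus strand), the phosphorylase, had no rhythm call under either regimen. At NRF ZT8 it had 439, 223, 866 and 298 CPM and at NRF ZT20 778, 641, 754 and 769 CPM. The ZT8 mice were on both sides of the ZT20 mice. Its amplitude was 0.34 (SE 0.14) under NRF and 0.15 (SE 0.14) under DRF, and the combined test gave an adjusted p of 1.0 in both. At ZT4 the NRF mice had 583, 882, 281 and 344 CPM and the DRF mice 876, 722, 1008 and 1062 CPM. The groups overlapped, and Pygl was higher under DRF by 0.94 (SE 0.34, adjusted p = 0.044) in limma, a call lost without replicate 3 or 4, without the ZT24 libraries and with total-read scaling. At ZT16 the DRF mice (939.7, 859, 941 and 977 CPM) were all above the NRF mice (443, 801, 462 and 667 CPM), yet the difference of 0.69 (SE 0.34, adjusted p = 0.22) did not pass.

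**Figure D2:**
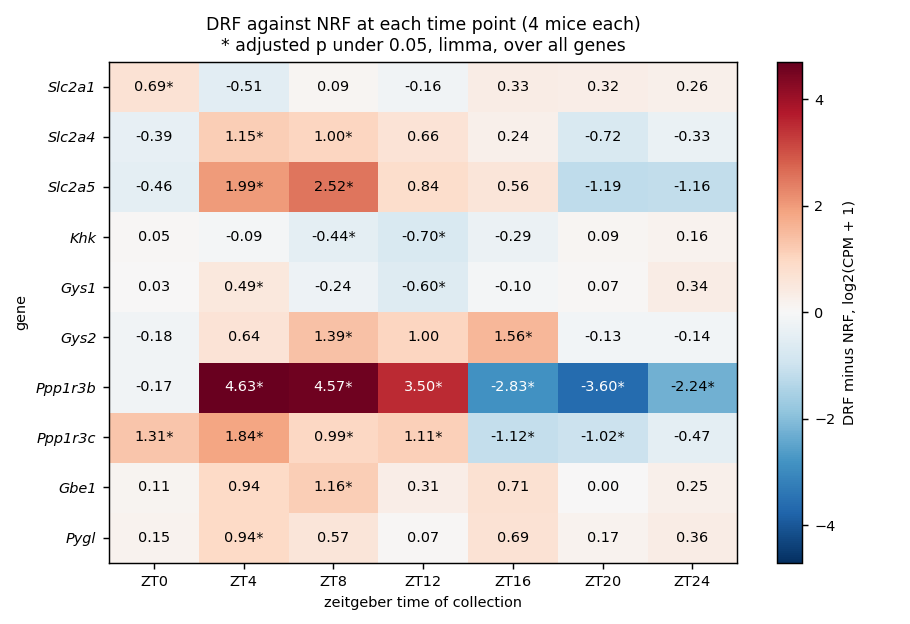
Difference DRF minus NRF in log2(CPM + 1) for each gene (rows) and zeitgeber time (columns), 4 mice per group, with an asterisk where the limma adjusted p over all genes was under 0.05. Ppp1r3b went from 4.63 at ZT4 to -3.60 at ZT20, and 25 of the 70 cells carry an asterisk, most of them from ZT4 to ZT12.

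Counted over the 10 genes at 7 times, 25 of 70 differences passed, 17 higher and 8 lower under DRF. At ZT4 6 members passed, all higher under DRF (background 19.5% of all genes, 10.4% higher and 9.05% lower), and at ZT8 7 passed, Khk lower and the other 6 higher (16.5%, of which 8.99% higher and 7.47% lower). At ZT12 4 passed (16.1%), at ZT16 3 (9.97%), at ZT0 and at ZT20 2 each (10.5% and 13.1%), and at ZT24 1 (11.3%). The regimens did not overlap for 5 members at ZT4, where this held for 24.4% of all genes, 3 at ZT8 (11.8%) and 5 at ZT12 (21.7%). It held for 6 at ZT16 (18.9%), 3 at ZT20 (19.7%), 1 at ZT24 (15.5%) and 0 at ZT0 (9.89%). Leaving out 1 replicate number at a time, which took 1 mouse from every group, 9 to 21 of the 70 passed, with the fewest without replicate 4. Without NRF ZT24 replicate 4 alone 22 passed, and without the 2 DRF libraries that stood apart 28. Over all genes, 53.5% of the ZT4 calls were higher under DRF, and 24.9% were so when libraries were scaled by total reads. At ZT24 the 2 shares were 53.7% and 37.0%, and no member's called difference changed sign. With that scaling 4 members passed at ZT4, Slc2a4, Ppp1r3b and Ppp1r3c higher and Slc2a1 lower under DRF (-0.69, adjusted p = 0.044), while Slc2a5, Gys1 and Pygl did not. Of all 25938 genes, 1415 were then called higher and 4265 lower at ZT4. Beside the lists given with Khk and Gys1, summed markers did not overlap for mesothelium at ZT4 (214 to 338 CPM under DRF and 349 to 560.1 under NRF), ovary at ZT16 (lower under DRF), liver at ZT20 and ZT24 and red cells at ZT0 and ZT24 (higher under DRF). Single genes without overlap in the same direction were Msln, Lrrn4 and Upk1b for mesothelium at ZT4 and Star alone for ovary at ZT16. For liver they were Apoa2 and Cyp2e1 at ZT20 and Cyp2e1 alone at ZT24. For red cells they were Hba-a1, Hba-a2 and Alas2 at ZT0 and Hbb-bt, Hba-a1 and Alas2 at ZT24. The part of these lists in the members' values was not tested.

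The second comparison asked whether the mean level over the day differed. 5 of the 10 members passed in limma, against 21.7% of all genes. Higher under DRF were Ppp1r3b by 0.80 (SE 0.25, adjusted p = 0.016), Gys2 by 0.71 (SE 0.18, adjusted p = 0.0026), Gbe1 by 0.53 (SE 0.14, adjusted p = 0.0046) and Pygl by 0.43 (SE 0.13, adjusted p = 0.015), and 11.4% of all genes were called in that direction. Khk alone was lower, with a log2 difference of -0.23 (SE 0.05, adjusted p = 0.00014), against 10.3% of all genes. The median CPM of Pygl was 649 under NRF and 832 under DRF, and that of Gys2 was 25.5 and 38.3, with overlapping ranges. Slc2a4 did not pass (0.30, SE 0.12, adjusted p = 0.068) but did without DRF ZT8 replicate 1 and DRF ZT0 replicate 4 (0.38, adjusted p = 0.0081) and with a filter of 0.5 CPM (adjusted p = 0.045), and so without the 2 libraries did Ppp1r3c (0.38, SE 0.16, adjusted p = 0.087 with them and 0.42, adjusted p = 0.042 without). Ppp1r3c also passed without replicate 1 (adjusted p = 0.041), without the ZT24 libraries (0.019) and in a model of 14 group means (0.037). Slc2a5 (0.59, SE 0.28, adjusted p = 0.12), Slc2a1 (0.12, SE 0.09, adjusted p = 0.41) and Gys1 (-0.05, SE 0.07, adjusted p = 0.64) did not pass. The Ppp1r3b call was lost without replicate 3 or 4 (differences 0.74 and 0.79) and in that model, and the Pygl call without replicate 1. Between regimens the median sum of red cell markers was 476 CPM under DRF and 274 CPM under NRF, and that of adipocyte markers 28444 and 32782 CPM. Skeletal muscle markers were at 62.6 and 41.1 CPM and mesothelium markers at 299 and 387 CPM. Their part in the mean levels was not tested. Over all genes 52.6% of the calls were higher under DRF, and 38.4% were so with libraries scaled by total reads, under which all 5 members' directions were kept.

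**Figure D3:**
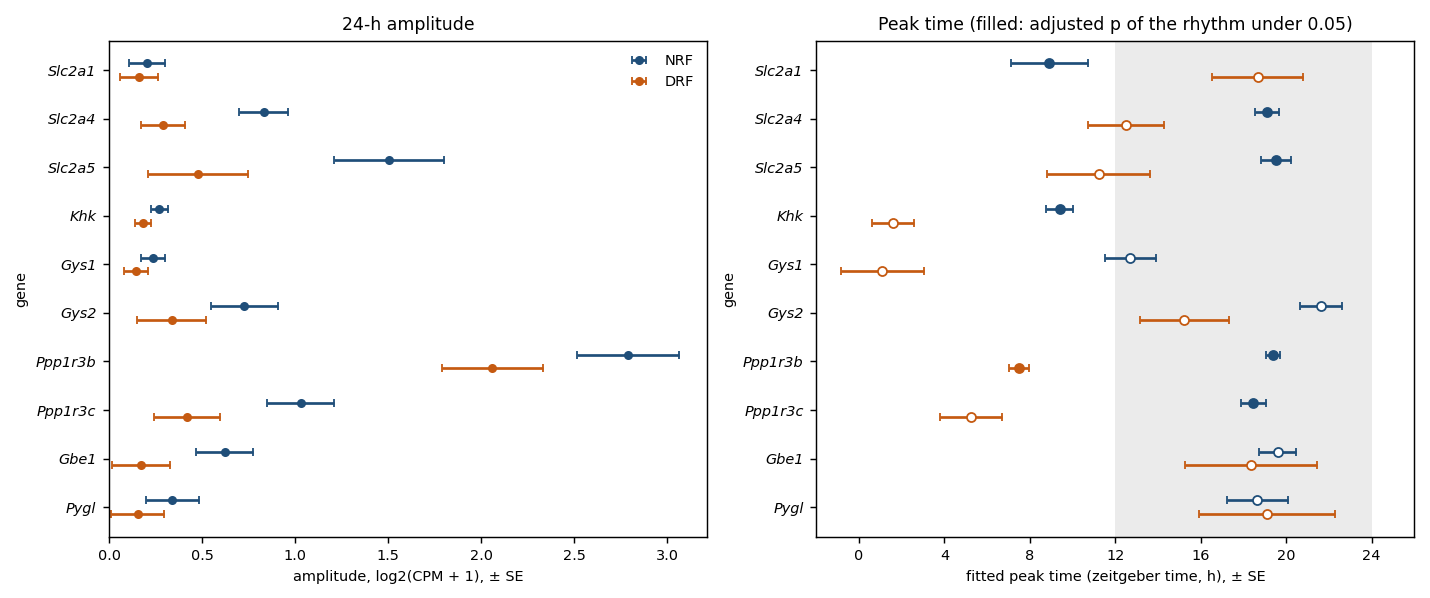
Left, fitted 24-h amplitude in log2(CPM + 1) under NRF (blue) and DRF (orange) for each gene. Right, fitted peak time in zeitgeber hours, filled where the combined rhythm test had an adjusted p under 0.05. Bars are SE from fits to 28 libraries per regimen, with 1 residual variance shared by both regimens. All 10 amplitudes were lower under DRF as fitted, and only Ppp1r3b has a filled peak under both regimens, at ZT19.4 and ZT7.47.

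Rhythm amplitude and peak time were compared with a cosine fitted per regimen. In that fit the DRF amplitude was below the NRF amplitude for all 10 members, at 27.3% (Gbe1) to 79.0% (Slc2a1) of it, and this held for 55.1% of all genes and 58.7% of those with a mean of at least 1 CPM. No single difference passed (Wald test, adjusted p of 0.12 or more), 4 members were under 0.05 before adjustment, and 1.44% of all genes passed, 1.10% with the lower amplitude under DRF. These 4 were Slc2a4 (difference -0.54, SE 0.18), Slc2a5 (-1.02, SE 0.40), Ppp1r3c (-0.61, SE 0.25) and Gbe1 (-0.45, SE 0.22). On linear CPM the sign was turned for Ppp1r3b and Slc2a1. Fitted peaks differed between regimens by 11.6 h (SE 2.27 h) for Gys1, 9.76 h (SE 2.79 h) for Slc2a1, 8.30 h (SE 2.49 h) for Slc2a5 and 7.79 h (SE 1.18 h) for Khk. They differed by 6.60 h (SE 1.84 h) for Slc2a4 and 6.39 h (SE 2.30 h) for Gys2. Of these 6 genes none had a DRF rhythm by the combined test, and several DRF peaks moved with the libraries left out. The Slc2a1 shift was 6.89 h without replicate 4, with its DRF peak at ZT16.1 there and at ZT21.4 on linear CPM. The DRF peak was at ZT3.42 for Gys1 without replicate 1, and at ZT14.5 for Slc2a4 without replicate 4. For Ppp1r3c it was at ZT3.75 without the ZT24 libraries. For Gbe1 and Pygl the shifts were 1.23 h (SE 3.22 h) and 0.463 h (SE 3.49 h), with 95% intervals wider than 12 h.

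Because food was given in opposite phases of the day, each gene's 24-h rhythm was divided into a difference component (0.5 of the difference of the fitted NRF and DRF cosines) and a shared component (0.5 of their sum). With an unchanged amplitude, a rhythm that moved by 12 h scores on the first alone, and one that kept its clock time on the second alone. A rhythm whose amplitude changed, or that was lost under DRF, scores on both. The difference component is the quantity behind the rhythm difference above. It was 2.42 for Ppp1r3b, 0.91 for Slc2a5, 0.72 for Ppp1r3c, 0.46 for Slc2a4, 0.42 for Gys2, 0.19 for Khk and 0.19 for Gys1. Gbe1, Slc2a1 and Pygl, which did not pass, had 0.23, 0.18 and 0.09. The shared component passed for 3 members in limma, against 14.9% of all genes. They were Slc2a4 at 0.42 (adjusted p = 0.0034), Gbe1 at 0.39 (adjusted p = 0.021) and Khk at 0.12 (adjusted p = 0.024), of which Slc2a4 and Khk passed for both components. For Ppp1r3b the shared component was 0.37 (adjusted p = 0.36) and did not pass. Slc2a5 was at 0.65 (adjusted p = 0.065), which passed with a filter of 0.5 CPM (adjusted p = 0.043), and Gys2 at 0.39 (adjusted p = 0.088). The Gbe1 call was lost without replicate 1, 2 or 4 and the Khk call without replicate 2 or 4, and without the 2 DRF libraries that stood apart 4 members passed, Slc2a1 being added.

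A 12-h component passed for 0 of 10 members in limma under either regimen, with 1 member under 0.05 before adjustment in each, Gys1 under NRF (amplitude 0.18) and Ppp1r3c under DRF (0.44). Of all genes, 0.0270% passed under NRF and 1.20% under DRF. Without the ZT24 libraries Ppp1r3c passed under DRF (adjusted p = 0.038). ZT24 against ZT0 compared different mice at one clock time a day apart, and 0 of 10 members passed under DRF (0.0501% of all genes) or NRF (0.154%), with 2 and 1 under 0.05 before adjustment. The largest were Ppp1r3c under DRF, at -1.26 (SE 0.36), and Ppp1r3b under NRF, at 1.24 (SE 0.58).

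Within groups of 4 mice, several members were lowest in the same animals. The mouse with the lowest Slc2a5 was also the lowest for Gys2 in 13 of 14 groups, for Gbe1 and Pygl in 12 each, for Slc2a4 in 11 and for Gys1 and Ppp1r3b in 10 each. It was the lowest for Ppp1r3c in 8 groups, for Khk in 4 and for Slc2a1 in 2. The median gene with a mean CPM of at least 1 shared the lowest mouse in 4 groups, and 0.706% of such genes did in 12 or more. In DRF ZT0 and DRF ZT8 that mouse was one of the libraries that stood apart. Without these groups the counts were 11 of 12 for Gys2, 10 each for Gbe1, Pygl and Ppp1r3b, 9 for Slc2a4, 8 for Gys1, 7 for Ppp1r3c, 3 for Khk and 2 for Slc2a1, with a median of 3. The lowest Slc2a5 of all was in NRF ZT8 replicate 2, with 26 reads of Slc2a5 (0.550 CPM), 4.02 CPM of Gys2, 46.7 of Gbe1 and 223 of Pygl. The same mouse had the highest Khk of all 56, at 28.6 CPM. The mouse lowest for Slc2a5 was the highest for Khk in 5 of 7 NRF groups, from ZT0 to ZT16, and in 1 of 7 DRF groups. NRF ZT4 replicate 3 was alike, with 2.01 CPM of Slc2a5, 7.56 of Gys2 and 127 of Slc2a4, the lowest Slc2a4 of all. Summed adipocyte markers in these 2 mice were 41575 and 44075 CPM, the latter the highest of all libraries. In that library Cfd was at 18266 CPM (median of all libraries 7992 CPM) and Adipoq at 3770 CPM (median 2754 CPM), each the highest of all. In the 2 mice liver markers summed to 6473 and 7434 CPM (NRF median 3465 CPM) and mesothelium markers to 532 and 548 CPM (NRF median 387 CPM). Summed macrophage markers were 1728 and 1096 CPM, against a median of 865 CPM under NRF. Endothelium markers were lower, at 591 and 576 CPM (NRF median 682 CPM). Red cell markers summed to 746 and 489 CPM (NRF median 274 CPM), and lymphoid markers to 29.6 and 11.6 CPM (NRF median 10.3 CPM). Of the listed liver genes, Cyp2e1 and Hp had the highest medians over all libraries, at 2506 and 702 CPM. Alb was at most 69.98 CPM outside NRF ZT24 replicate 4, so the liver sum is not a measure of liver cells. The part of these lists in the members' values was not tested. The median SD within a group on log2(CPM + 1) was 1.13 under NRF and 0.57 under DRF for Slc2a5, and 0.61 and 0.27 for Pygl. For Ppp1r3c it was larger under DRF (0.34 and 0.49), and these differences in spread were not tested.

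**Figure D4:**
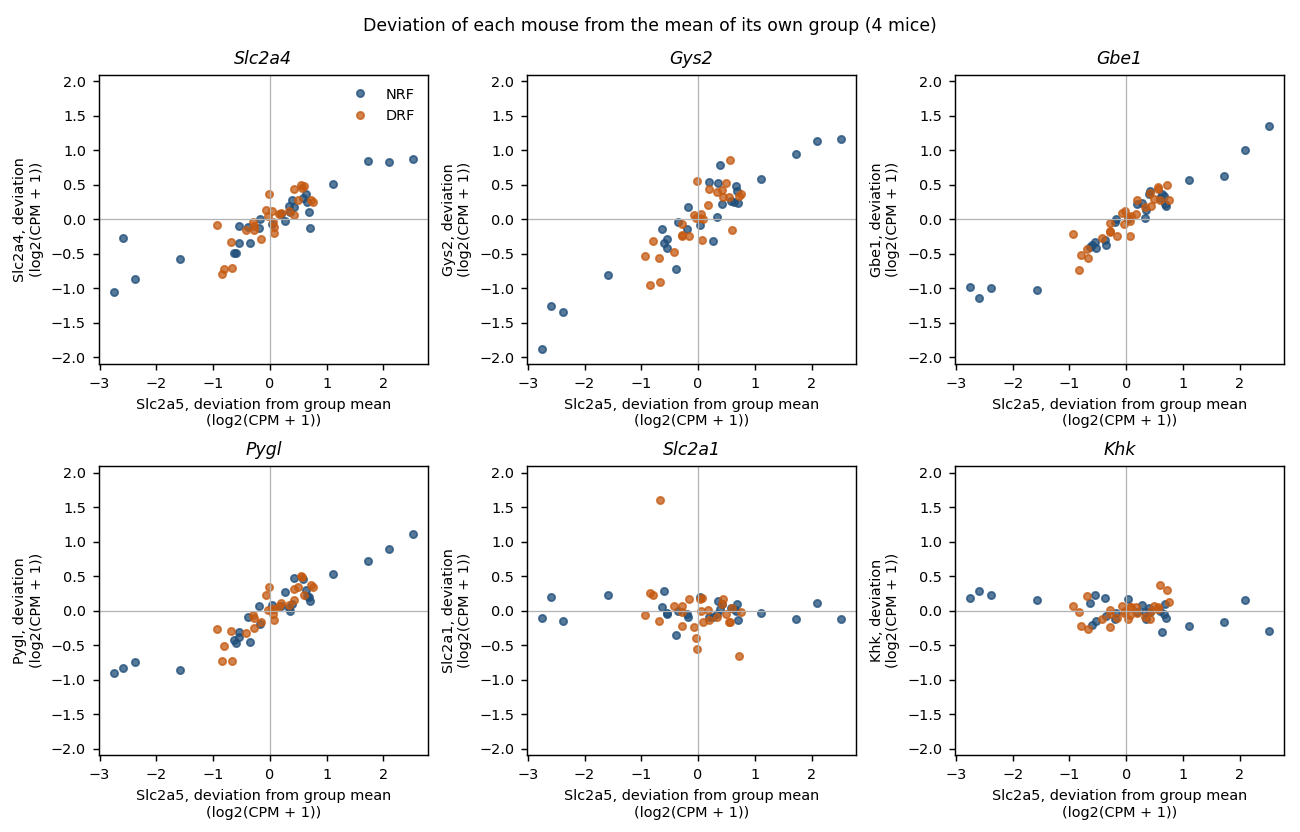
Deviation of each mouse from the mean of its own group in log2(CPM + 1), for 6 genes (y axes) against Slc2a5 (x axis), 56 mice, NRF in blue and DRF in orange. Points for Slc2a4, Gys2, Gbe1 and Pygl climb with Slc2a5, most of the spread being among NRF mice, while those for Slc2a1 and Khk do not.

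The genes most like each member were found by Pearson r of log2(CPM + 1) over the 56 libraries, among 14303 genes, and are a description in which regimen, time and differences between mice are all shared. Slc2a5 was closest to Acly (0.97) and Gpd2 (0.97), where Acly makes the acetyl-CoA used for fatty acid synthesis. Slc2a4 was closest to Acat2 (0.93) and Thrsp (0.93), Gbe1 to Pdhb (0.97) and Me1 (0.97), and Pygl to Dlat (0.95) and Map6 (0.94). Pdhb and Dlat are subunits of the pyruvate dehydrogenase complex, and Me1 is the malic enzyme that yields NADPH. Gys2 was closest to Marc1 (0.95) and Nsdhl (0.93), and Ppp1r3b to Mid1ip1 (0.97) and Angptl8 (0.95). Ppp1r3c was closest to Mtf1 (0.85) and Nufip2 (0.84), Gys1 to Sgta (0.88), Khk to Rp9 (0.80) and Itpka (0.80) and Slc2a1 to Abhd2 (0.85) and Trp53bp2 (0.84). These r values include the libraries that stood apart, among them DRF ZT0 replicate 4 with Slc2a1 at 46.8 CPM, and are not given without them.

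Other genes of the pathway were taken from 5 lists. Among 26 measured genes of glycogen metabolism, 12 passed the rhythm difference, against 36.0% of all genes, and 7 were higher and 2 lower in mean level under DRF, against 11.4% and 10.3% of all genes. Among those that passed were Ppp1r3d, another targeting subunit (0.60 at ZT21.0 under NRF and 0.43 at ZT9.04 under DRF), and Epm2a, laforin (0.58 at ZT7.56 under NRF and 0.28 at ZT22.0 under DRF). Per length, the other phosphorylases averaged 50.1 CPM per kb (Pygb) and 3.07 (Pygm), both below Pygl. Among 11 measured sugar transporters outside the set, 7 passed the rhythm difference, against 36.0% of all genes. In mean level 1 was higher and 1 lower, near the 11.4% and 10.3% of all genes. Slc2a3 had amplitudes of 0.42 at ZT13.5 under NRF and 0.67 at ZT18.2 under DRF, Slc2a12 of 0.47 at ZT6.24 under NRF and 0.07 at ZT19.4 under DRF and Slc2a9 of 0.37 at ZT7.25 under NRF and 0.10 at ZT22.5 under DRF. The sodium-coupled transporters Slc5a2 and Slc5a10 were at or near 0, with at most 4 and 6 reads in any library.

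Of 13 genes of GLUT4 vesicle traffic, 11 passed the rhythm difference (36.0% of all genes), while 1 was higher and 2 were lower in mean level (11.4% and 10.3% of all genes). Tbc1d4 (AS160), which holds GLUT4 vesicles back, had amplitudes of 0.47 at ZT21.2 under NRF and 0.24 at ZT9.45 under DRF, and Lnpep (IRAP), which travels in them, ran the other way, with 0.28 at ZT8.66 under NRF and 0.36 at ZT19.3 under DRF. Akt2, the kinase upstream, had 0.22 at ZT15.3 under NRF and 0.40 at ZT5.00 under DRF. Of 12 genes of hexose phosphorylation and fructose breakdown, 5 passed the rhythm difference, near the 36.0% of all genes. In mean level 3 were higher and 3 lower, against 11.4% and 10.3% of all genes. Hk2, the insulin-responsive hexokinase, had amplitudes of 1.28 at ZT18.8 under NRF and 0.70 at ZT8.31 under DRF, close in peak time to Ppp1r3b. Hkdc1, with a mean level of 0.358 CPM, had an amplitude of 0.29 under NRF. In the sugar-responsive list 4 of 6 passed the rhythm difference, against 36.0% of all genes, and 1 was higher and 1 lower in mean level, against 11.4% and 10.3%. Among the 4 were the sugar-sensing factor Mlxipl (ChREBP) at 1.17 at ZT19.5 under NRF and 0.73 at ZT11.9 under DRF, and its partner Mlx at 0.86 at ZT19.6 under NRF and 0.65 at ZT8.16 under DRF. Txnip, an inhibitor of glucose uptake, was in the opposite phase, at 0.76 at ZT8.28 under NRF and 1.12 at ZT19.4 under DRF, and was lower in mean level under DRF by a log2 difference of -0.42 (limma, adjusted p = 0.00057). The median difference component was 0.32 over the 10 members, 0.51 over the sugar-responsive list and 0.09 to 0.19 over the other 4 lists. It was 0.07 over all genes, of which 6190 had a mean under 0.1 CPM, and 0.12 over the 14303 genes with a mean of at least 1 CPM.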

How the data were processed

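VAT libraries were made with an unstranded kit (NEBNext Ultra) and, per the submitters' processing notes, reads were aligned with HISAT2 2.0.5 to mm10 and counted with featureCounts 1.5.0-p3. The authors deposited 1 table whose values, although named TPM, are a log-based score: log2(CPM + 1) divided by gene length and rescaled per library. CPM and whole reads were recovered from the deposited score with annotated exon lengths (25055 genes) or from the values (882 genes), and 100% of 1262086 tested values came out whole within 0.02. Recovered reads were 31.1 to 41.2 M per library (median 35.5 M). The plan had assumed linear TPM, so tests were run on log2(CPM + 1) instead. A mean deposited value of at least 0.1 was required and removed no gene.

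Rhythms were tested per regimen by combining JTK_CYCLE and Lomb-Scargle p-values over 25939 genes on the deposited score. A 24-h cosine model, mean levels, 12-h terms and single time points were tested with limma 3.58.1 (R 4.3.3) on 25938 genes, and p-values were adjusted by Benjamini-Hochberg over all genes with a threshold of 0.05. Amplitudes were compared by a Wald test on 50 residual degrees of freedom. Other steps used Python 3.11.15, numpy 2.4.6, pandas 2.3.3, scipy 1.17.1 and matplotlib 3.10.9, and the tests were tested on simulated data. All 10 members were named, with the 2 genes most like each and, per pathway list, the 3 largest amplitudes among genes past the rhythm difference and any gene near 0; some items that this rule names are not reported here. The members and lists were chosen with earlier results of these data known. Alternatives changed the pseudocount, library scaling, filter, intensity trend, replicate block, rhythm test, and libraries or replicates left out.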

Additional observations from a re-analysis of the deposited data

Results flagged for a closer look

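In 140 groups of 4 mice (10 genes in 14 groups), 9 values of the members lay far from the other 3 mice, where chance gives about 1 in 20 groups, or 7. Slc2a1 was at 46.8 CPM in DRF ZT0 replicate 4, with 8.95 to 10.9 CPM in the others, and this was the library with the epithelial markers. Slc2a1 was at 13.3 CPM in NRF ZT12 replicate 1, against 10.5 to 10.9 CPM. Gys1 made up 4 of the 9 values. It was at 198 CPM in NRF ZT8 replicate 3 (others 128 to 135 CPM), 175 CPM in NRF ZT12 replicate 1 (209 to 214 CPM), 129 CPM in NRF ZT16 replicate 1 (146 to 148 CPM) and 117 CPM in DRF ZT12 replicate 2 (138 to 140.3 CPM). Ppp1r3c was at 16.7 CPM in NRF ZT8 replicate 2 (25.5 to 27.1 CPM), Gbe1 at 316 CPM in DRF ZT16 replicate 2 (362 to 372 CPM) and Pygl at 641 CPM in NRF ZT20 replicate 2 (754 to 778 CPM).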

How the results depend on the processing

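The limits are 4 mice per group and single mice that differ widely. With a replicate block the members called stayed at 5 for mean level, 7 for rhythm difference, 3 for the shared component, 0 at 12 h, 25 at single times and 0 for ZT24 against ZT0. Same-numbered libraries had a median r of 0.0215 over 364 pairs, and other pairs had a median of -0.00544. No general pairing by number was seen. Of the same-numbered pairs 36.8% had an r over 0.1, and a median cannot exclude pairing in some groups. The limma F test gave 2 rhythmic members under DRF and 6929 genes, and with the replicate block 2 and 7185. Lomb-Scargle alone gave 0 members and 0 genes under NRF and under DRF. Its p-value was corrected for a search over many periods although 24 h alone was tested, which makes a call hard to reach. Ppp1r3b under NRF had an adjusted p of 0.066 in it. The count of 0 thus cannot show that rhythms were absent. Under DRF 2 members passed with JTK_CYCLE alone and 2 on log2(CPM + 1). Without the ZT24 libraries 1 member passed at 12 h, and with total reads as library size 92 genes passed ZT24 against ZT0.

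Leaving out 1 replicate number, or the libraries that stood apart, gave 3 to 6 rhythmic members under NRF (3485 to 6339 genes) and 1 to 3 under DRF (1288 to 4389 genes). It gave 1 to 4 members for the shared component (1424 to 4912 genes), 34 to 368 genes at 12 h, 9 to 28 single-time member calls (13422 to 30801 over all genes), 0 to 1 members and 0 to 412 genes for ZT24 against ZT0, and 80 to 570 genes for amplitude. The highest of each range came without DRF ZT8 replicate 1 and DRF ZT0 replicate 4, except for ZT24 against ZT0 and for the NRF rhythm, which these DRF libraries do not enter. NRF ZT24 replicate 4 was left out as a choice made after seeing the data, and 22 of the 25 single-time calls then passed. The sign changed within the range of -0.0691 to 0.0106 for the Gys1 mean level, and of -0.0625 to 0.0379 for Slc2a1 and -0.321 to 0.0393 for Pygl in amplitude. Slc2a1 was at 0.00922 in amplitude without the 2 DRF libraries. On linear CPM the amplitude difference was 0.233 for Slc2a1 and 28.5 for Ppp1r3b. The causes were not tested.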
